A study of Bos taurus with 11 samples.

Results

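Interferon-stimulated genes were followed across endometrial biopsies of 11 cows, as a list of 39 named genes. A gene was measured where a non-control probe of the array carried its name, which held for 33 of the 39 genes, out of 17122 named genes on the array, with 62 probes. The other 6 (OAS1X, OAS1Y, OAS1Z, IFI44L, DHX58 and ZBP1) had no probe under the listed name. The study compared 5 subfertile cows, which had not conceived at 3 transfers or inseminations in a row although their genital tracts showed no detectable abnormality and their cycles appeared normal, with 6 fertile cows, which had conceived within 3 services and did so again at the first embryo transfer after the biopsy. All 11 cows were biopsied on day 7 of the oestrous cycle, each cow is 1 animal with 1 Agilent 1-colour array, and the labels give no breed, age or treatment. A biopsy holds epithelium, stroma, vessels and leukocytes together, so that fewer cells of a type and less RNA per cell cannot be told apart.

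Type I interferons bind a receptor that signals through the kinases JAK1 and TYK2 to transcription factors, STAT2 and IRF9 among them, which switch on a common set of genes whose products block viruses at several steps or tune the signal itself. In ruminants the elongating conceptus secretes interferon tau, a type I interferon, and the endometrium answers with the same set, of which ISG15 is the usual index gene. The measurements here describe how much of each transcript was present in early-cycle tissue, whether the groups differed, and whether the genes varied together from cow to cow.

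Levels are log2 processed signal minus the 75th percentile of the same array, so that 0 is the brightness of that percentile. A level is read only against other cows for the same probe. A probe was tested where it was well above background on at least 5 of 11 arrays, which left 51 of the 62 probes and 31 of the 33 genes, and each gene is represented by its brightest tested probe. Of these 31 probes, 27 were well above background on all 11 arrays, 10 lay above the 75th percentile on every array and 12 lay below it on every array. CMPK2, DTX3L and IFIT2 were above background on 4 of 5 subfertile and 6 of 6 fertile arrays, and MX2 on 2 of 5 subfertile and 6 of 6 fertile arrays. IFIT1 and OAS2 were not well above background on any array. The median processed signal was 54.3 to 92.7 on the subfertile arrays and 161 to 452 on the fertile arrays. Between 64.5% and 74.2% of probes were well above background on subfertile arrays, against 72.0% to 77.4% on fertile arrays, and no non-control spot was saturated. Fertile cows 1 to 5 and the subfertile cows lay on slides and scan days that each held 1 group only, and the slide of fertile cow 6 is not given in the sources used here, so that batch and group cannot be told apart. Precision is limited by 5 and 6 arrays.

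The group comparison called 5 of the 31 genes. XAF1, HERC6 and IFI35 were higher in subfertile cows, RSAD2 and USP18 were lower, and 26 genes did not pass the threshold of 0.05 on the limma adjusted p, which was computed over all 31876 probes tested. This is 9.68% of the genes higher and 6.45% lower, beside 14.7% higher and 7.65% lower over the brightest probes of all 13237 named genes tested. In either direction it is 16.1%, against a background of 22.3%. The median difference (subfertile minus fertile) was -0.04 over the 31 genes and 0.06 over all named genes, and the differences of the members ran from -0.73 to 0.74. With the slide or the scan day as a random block, 0 of the 31 genes passed in limma, with 3 higher and 2 lower at an unadjusted p under 0.05 in each. Of all probes, 11.5% were called with the slide block and 3.06% with the scan day block. Normexp background correction moved the median difference of all probes to 0.33. With it 9 genes were higher and 1 was lower, beside 53.6% of all probes called in either direction. Of those called probes 87.3% were higher, against 66.7% in the main setting, 50.8% after quantile normalization and 47.6% with arrays centred on their medians.

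**Figure D1:**
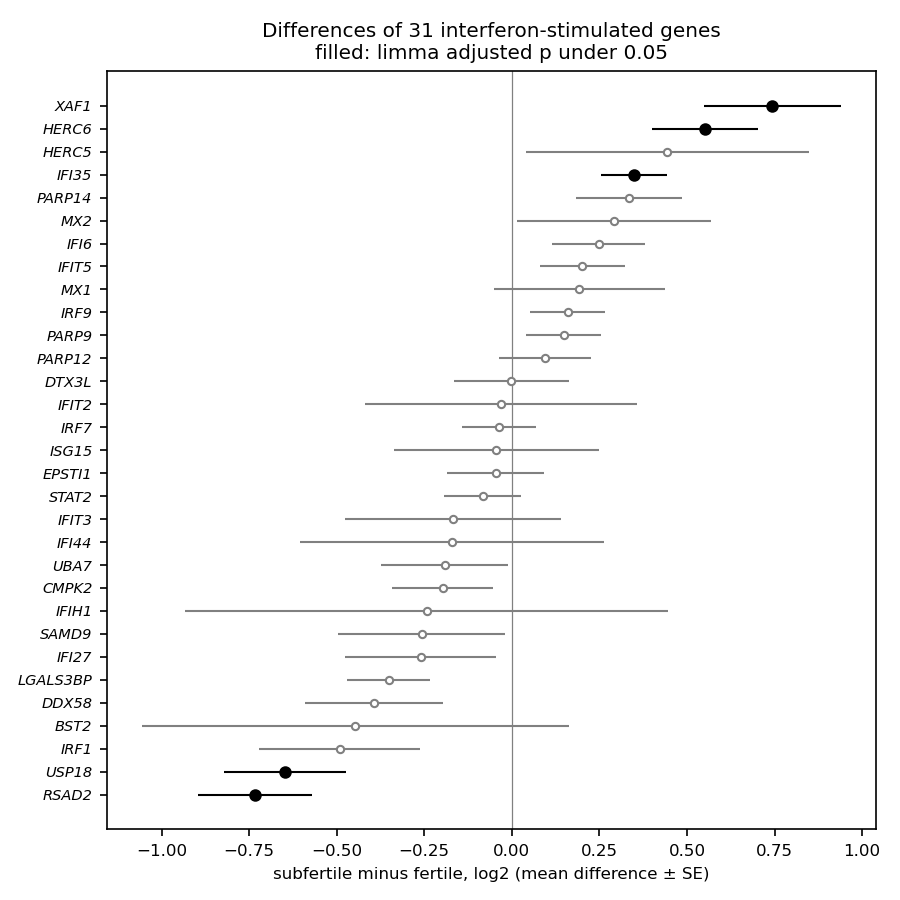
Difference between subfertile (n = 5) and fertile (n = 6) cows for the brightest tested probe of 31 interferon-stimulated genes, as log2 mean difference with its limma standard error, positive where the subfertile mean is higher. The 3 filled points on the right are XAF1, HERC6 and IFI35, the 2 on the left are USP18 and RSAD2, and the other 26 have limma adjusted p-values of 0.054 or more.

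The ubiquitin-like pathway came first. ISG15, a ubiquitin-like protein that is secreted and also attached to other proteins, had levels of -0.01, 0.18, 1.31, 0.91 and 0.51 in subfertile cows 1 to 5. Its levels in fertile cows ran from -0.31 through a median of 0.74 to 1.12. The groups overlapped over nearly their whole range, with means of 0.58 ± 0.54 in subfertile cows (SD, n = 5) and 0.62 ± 0.53 in fertile cows (SD, n = 6) and a limma difference of -0.04 ± 0.29 (SE, adjusted p = 0.93). A second ISG15 probe, shifted by 32 bases and sharing 28 bases with the first, gave -0.19 ± 0.28 (limma adjusted p = 0.66) and followed the first from cow to cow. Both are printed because ISG15 is the index gene of the list and the shared stretch shows how closely they sit. The capitals mark the shared bases, and positions are those of the array's annotation on build HGSC Btau_3.1.
ISG15 brightest probe, chr16:48718914-48718973, minus strand: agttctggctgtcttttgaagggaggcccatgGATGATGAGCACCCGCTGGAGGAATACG
ISG15 second probe, chr16:48718882-48718941, minus strand: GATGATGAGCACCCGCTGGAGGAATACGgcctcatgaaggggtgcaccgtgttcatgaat

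USP18, the protease that takes ISG15 off its targets and restrains the interferon receptor, was lower in subfertile cows on its brightest probe. Subfertile cows 1 to 5 had levels of -2.63, -2.82, -2.48, -1.95 and -2.43, and fertile cows ran from -2.22 through a median of -1.73 to -1.58. Subfertile cow 4 overlapped the fertile values and the other subfertile cows were below them. The difference was -0.65 ± 0.17 (SE; 1.57-fold lower, limma adjusted p = 0.0222), and without subfertile cow 2 it was -0.56 with a limma adjusted p of 0.0591. It was -0.32 after normexp background correction (limma adjusted p = 0.0827) and -0.33 for the mean of both probes (limma adjusted p = 0.249). The second USP18 probe, 3017 bases upstream on the genome and also above background on all 11 arrays, ran from -4.64 to -3.77 in subfertile cows and from -5.15 to -3.76 in fertile cows. That probe differed by -0.01 ± 0.24 (SE; limma adjusted p = 0.975), so the lower value in subfertile cows was seen on 1 of 2 probes, although the pair correlated at r = 0.79 within groups.

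HERC6, which acts as the main ISG15 ligase in mice, was higher in subfertile cows. Its levels were -0.84, -0.94, -0.79, -0.80 and -1.04 in subfertile cows 1 to 5, against -1.85 to -0.91 with a median of -1.42 in fertile cows. Fertile cow 2 lay among the subfertile cows and the other fertile cows below all of them. The difference was 0.55 ± 0.15 (SE; 1.47-fold higher, limma adjusted p = 0.0237). A second probe that overlaps the first by 29 bases differed by 0.34 ± 0.19 (SE; limma adjusted p = 0.213), the mean of both by 0.44 (limma adjusted p = 0.0813), and both probes were high or low in the same cows (r = 0.97 within groups). Their sequences are shown with the shared bases in capitals, since here the call turned on which of 2 overlapping oligos was read.
HERC6 brightest probe, chr6:37128613-37128672, minus strand: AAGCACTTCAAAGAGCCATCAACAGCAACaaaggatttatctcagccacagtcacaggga
HERC6 second probe, chr6:37128644-37128703, minus strand: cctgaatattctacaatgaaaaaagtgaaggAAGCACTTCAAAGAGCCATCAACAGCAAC

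HERC5, the ISG15 ligase known from human cells and the neighbour of HERC6 on chromosome 6, was among the most variable members. It ranged from 0.55 to 2.39 in subfertile cows and from -0.29 to 1.67 in fertile cows, with a difference of 0.44 ± 0.40 (SE; limma adjusted p = 0.456). UBA7, the enzyme that activates ISG15 before its transfer, had levels of -0.91 to -0.13 in subfertile cows and -0.61 to 0.28 in fertile cows and differed by -0.19 ± 0.18 (SE; limma adjusted p = 0.476).

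Among the direct antiviral effectors RSAD2 was the member called lower. RSAD2 encodes viperin, a radical SAM enzyme that makes a chain-terminating nucleotide. Its levels were -2.96, -3.14, -2.84, -2.66 and -3.58 in subfertile cows 1 to 5, and in fertile cows they ran from -2.54 through a median of -2.34 to -2.06. Every subfertile cow lay below every fertile cow. RSAD2 was the 1 member of 31 with such a separation downwards and IFI35 the 1 member upwards, beside 4.17% of all named genes separated downwards and 9.8% upwards. The difference was -0.73 ± 0.16 (SE; 1.66-fold lower, limma adjusted p = 0.00965). It was -0.17 with a limma adjusted p of 0.205 after normexp background correction and -0.81 with a limma adjusted p of 0.00783 after quantile normalization. The brightest probe lies at chr11:92860213-92860272 on the minus strand, and a second RSAD2 probe was not above background on any array. CMPK2, a nucleotide kinase gene that neighbours RSAD2 and is commonly induced with it, ran from -5.72 to -4.91 in subfertile cows and from -5.26 to -4.86 in fertile cows. Its difference was -0.20 ± 0.14 (SE; limma adjusted p = 0.349).

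MX1, a dynamin-like GTPase that traps viral components, had levels of 0.69, 1.15, 0.77, 1.11 and 0.88 in subfertile cows 1 to 5. In fertile cows it ran from -0.37 through a median of 0.92 to 1.16, and the lowest value belonged to fertile cow 6. The difference was 0.19 ± 0.24 (SE; limma adjusted p = 0.601), and a second MX1 probe gave 0.52 ± 0.27 (SE; limma adjusted p = 0.183). MX2, the related GTPase, was near the limit of detection, with -4.91, -5.55, -5.70, -5.92 and -5.68 in subfertile cows 1 to 5 and -6.43 to -4.73 with a median of -6.02 in fertile cows. It differed by 0.29 ± 0.28 (SE; limma adjusted p = 0.479), and with normexp background correction by 1.23 (limma adjusted p = 1.56e-05), a probe well above background in 2 of the 5 subfertile cows.

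The IFIT genes, whose products bind foreign RNA, form a cluster on chromosome 26. IFIT5 was above the 75th percentile on every array, at 0.80 to 1.24 in subfertile cows and 0.69 to 1.12 in fertile cows. IFIT3 ran from -5.48 to -3.79 in subfertile cows and from -4.75 to -3.63 in fertile cows, and IFIT2 from -5.64 to -4.50 in subfertile cows and from -6.14 to -3.97 in fertile cows. The differences of these 3 genes lay between -0.17 and 0.20, and their limma adjusted p-values between 0.256 and 0.964. IFIT1 read -8.56, -7.90, -8.05, -8.06 and -7.64 in subfertile cows 1 to 5 and -9.30 to -7.65 in fertile cows, all readings not well above background. BST2 encodes tetherin, which holds budding virus at the cell surface, and it spread widely, with -4.53, -3.25, -2.0, -1.53 and -3.40 in subfertile cows 1 to 5 and -4.36 to -1.40 in fertile cows (difference -0.45 ± 0.61 SE, limma adjusted p = 0.631). SAMD9, a restriction factor for poxviruses, had -0.85, -0.72, 0.04, 0.33 and -0.36 in subfertile cows 1 to 5 and -0.64 to 0.43 in fertile cows (difference -0.26 ± 0.24 SE, limma adjusted p = 0.467). OAS2, a synthetase of the messenger that activates RNase L, gave no reading well above background.

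Some of the 6 genes without a probe under their listed name could be placed through the RefSeq accessions of probes that carry another name; these probes are given here and counted nowhere else. A probe named OAS1 with the accession of OAS1Y, one of the bovine oligoadenylate synthetases, was bright in every cow, with 2.79, 2.77, 2.93, 3.27 and 2.09 in subfertile cows 1 to 5 and 2.30 to 2.91 in fertile cows (difference 0.20 ± 0.19 SE, limma adjusted p = 0.473). A probe with the accession of OAS1X behaved differently from it. It stood clear of background in 1 of 5 subfertile and 6 of 6 fertile cows, with -3.49, -7.56, -7.77, -7.70 and -5.40 in subfertile cows 1 to 5 and -5.30 to -3.70 in fertile cows. Subfertile cow 1 lay above every fertile cow and the other subfertile cows, whose readings were not well above background, below all of them. As 4 of the 5 subfertile readings are at background, no difference is given. Both probes of OAS1Z missed the detection filter, and the 3 OAS1 genes are close copies, so that a probe may read more than 1 of them. DHX58, listed as LGP2, differed by -0.03 ± 0.14 (SE; limma adjusted p = 0.897).

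**Figure D2:**
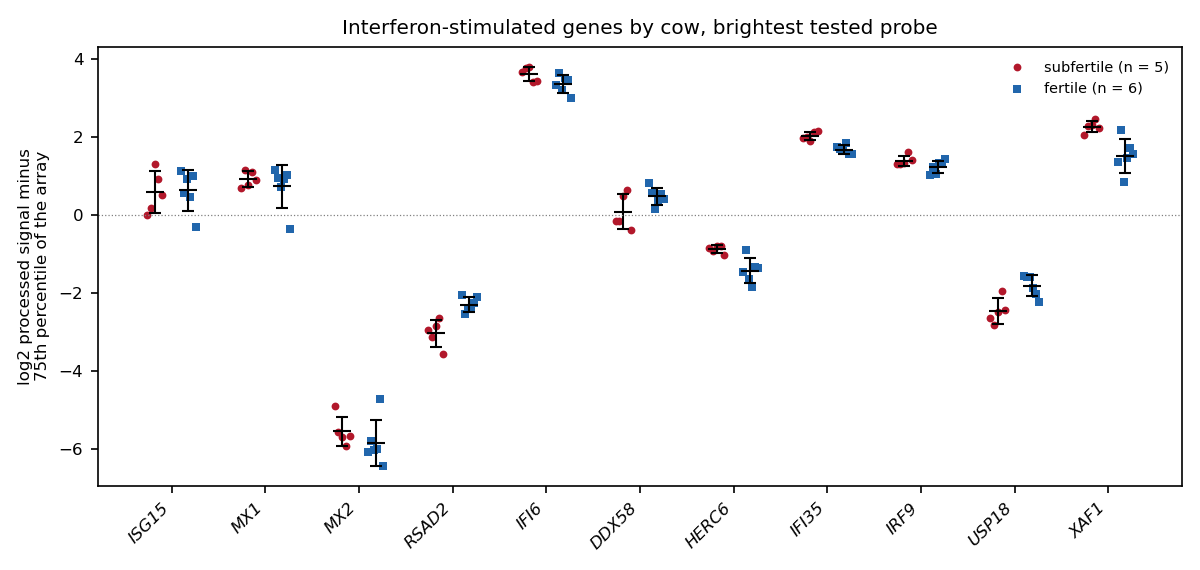
Level of the brightest tested probe in each cow, as log2 processed signal minus the 75th percentile of the array, for 11 interferon-stimulated genes; circles are subfertile cows, squares fertile cows, and black bars the mean ± SD. The circles lie below all squares for RSAD2 and above all squares for IFI35, while ISG15 and MX1 overlap and the low square of MX1 is fertile cow 6.

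Of the RNA sensors, DDX58 encodes RIG-I and IFIH1 encodes MDA5. The brightest DDX58 probe had -0.15, -0.16, 0.49, 0.64 and -0.40 in subfertile cows 1 to 5 and 0.16 to 0.81 with a median of 0.47 in fertile cows, and 3 subfertile cows lay below the fertile range. It differed by -0.39 ± 0.20 (SE; limma adjusted p = 0.171). The other DDX58 probe, 962 bases upstream, differed by -0.53 ± 0.17 (SE; limma adjusted p = 0.0481), with -2.92, -3.47, -2.73, -2.41 and -3.29 in subfertile cows 1 to 5 and -2.56 to -2.22 in fertile cows. The probes followed each other among cows (r = 0.87), and 1 of the 2 passed.

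IFIH1 had the widest spread of all members on its brightest probe, with a within-group SD of 1.29, above 98.8% of all named genes. Its levels were -1.22, -2.19, -4.11, -1.89 and -4.30 in subfertile cows 1 to 5, and -4.04, -1.79, -1.88, -2.0, -4.03 and -1.26 in fertile cows 1 to 6. The values fell into a lower set of 4 cows (subfertile cows 3 and 5, fertile cows 1 and 5) between -4.30 and -4.03 and an upper set of 7 cows between -2.19 and -1.22, with 1.84 between them and both groups in each set. The second IFIH1 probe showed no such split. It ran from -4.57 to -4.35 in subfertile cows and from -4.81 to -3.67 in fertile cows, was above background on all 11 arrays, and did not follow the first (r = -0.28 within groups, adjusted permutation p = 0.472). The brightest probe lies at chr2:35337628-35337687 and the second 11245 bases upstream. The second is printed because it is the one that spans a gap in the genome, covering 616 bases with 60.
IFIH1 second probe, chr2:35326383-35326998, plus strand: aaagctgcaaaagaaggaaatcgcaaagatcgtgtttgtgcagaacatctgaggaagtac

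The transcription factors were well detected and held close to their group means, apart from IRF1. STAT2 ran from -0.26 to 0.21 in subfertile cows and from -0.09 to 0.24 in fertile cows (difference -0.08 ± 0.11 SE, limma adjusted p = 0.615), and IRF7, a factor that amplifies interferon production, from 0.88 to 1.13 in subfertile cows and from 0.77 to 1.27 in fertile cows (difference -0.04 ± 0.11 SE, limma adjusted p = 0.831). IRF1, which responds to type II as well as type I interferon, had -0.16, 0.14, 0.91, 1.14 and 0.69 in subfertile cows 1 to 5 and 0.74 to 1.47 in fertile cows. Its difference of -0.49 ± 0.23 (SE) did not pass in limma (adjusted p = 0.142).

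IRF9, a DNA-binding partner of STAT2, was read by 3 probes, all higher on average in subfertile cows, of which 1 was called. The brightest, at chr10:21266345-21266404, had 1.31, 1.30, 1.32, 1.60 and 1.40 in subfertile cows 1 to 5 and 1.02 to 1.43 with a median of 1.28 in fertile cows, a difference of 0.16 ± 0.11 (SE; limma adjusted p = 0.305). A probe 3498 bases upstream had -3.30, -3.21, -3.46, -3.26 and -3.18 in subfertile cows 1 to 5, all above the fertile range of -3.94 to -3.50, and a difference of 0.45 ± 0.10 (SE; 1.36-fold higher, limma adjusted p = 0.0116). Another, dimmer probe between them gave 0.30 ± 0.22 (SE; limma adjusted p = 0.349). Within groups the brightest probe and the called probe ran in opposite directions (r = -0.49, adjusted permutation p = 0.205). The called probe and the dimmer one are shown, as they lie close together and upstream of the brightest.
IRF9 called probe, chr10:21269843-21269902, minus strand: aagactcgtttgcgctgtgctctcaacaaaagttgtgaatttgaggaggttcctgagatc
IRF9 dimmest probe, chr10:21269427-21269486, minus strand: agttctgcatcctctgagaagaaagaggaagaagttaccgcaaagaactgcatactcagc

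In the IFI family IFI35 was called higher. IFI35, a leucine zipper protein that associates with NMI, had the smallest within-group spread of the list, an SD of 0.113. Its levels were 1.97, 1.99, 1.88, 2.11 and 2.14 in subfertile cows 1 to 5 and 1.55 to 1.85 with a median of 1.67 in fertile cows, without overlap. The difference was 0.35 ± 0.09 (SE; 1.27-fold higher, limma adjusted p = 0.0232), 0.25 with arrays centred on their medians (limma adjusted p = 0.095), and 0.32 without subfertile cow 5 (limma adjusted p = 0.0579). The second IFI35 probe pointed the other way. It ran from -2.30 to -1.83 in subfertile cows and from -2.15 to -1.71 in fertile cows, a difference of -0.17 ± 0.12 (SE; limma adjusted p = 0.334), and the mean of both probes differed by 0.09 (limma adjusted p = 0.531). It is printed as the oligo that departs from the called one, which lies at chr19:44453088-44453147, 834 bases downstream.
IFI35 second probe, chr19:44452254-44452313, plus strand: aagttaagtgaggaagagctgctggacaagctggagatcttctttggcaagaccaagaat

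IFI6, a mitochondrial protein that limits apoptosis, was far above the 75th percentile in every cow, at 3.65, 3.76, 3.79, 3.40 and 3.42 in subfertile cows 1 to 5 and 3.00 to 3.64 with a median of 3.39 in fertile cows. It differed by 0.25 ± 0.13 (SE; limma adjusted p = 0.198). IFI27, another small membrane protein of the family, ran from 1.67 to 2.76 in subfertile cows and from 2.01 to 2.86 in fertile cows (difference -0.26 ± 0.22 SE, limma adjusted p = 0.41). IFI44 ran from -4.43 to -2.56 in subfertile cows and from -4.29 to -2.35 in fertile cows (difference -0.17 ± 0.43 SE, limma adjusted p = 0.807).

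PARP9, DTX3L and PARP14 lie close together on chromosome 1 and act in ADP-ribosylation; PARP9 and DTX3L form a complex. PARP14 had 0.84 to 1.37 in subfertile cows and 0.44 to 1.22 in fertile cows (difference 0.33 ± 0.15 SE, limma adjusted p = 0.132). PARP9, DTX3L and PARP12 differed by 0.15, -0.0016 and 0.09, with limma adjusted p-values from 0.348 to 0.996. Their other tested probes did not pass either, but some differed from the brightest. A second DTX3L probe gave -0.71 ± 0.30 and a second PARP12 probe 0.44 ± 0.17 (SE; limma adjusted p = 0.106 and 0.0819). A second PARP14 probe gave -0.22 ± 0.23 (SE; limma adjusted p = 0.527). Further PARP9 probes gave 0.11 and -0.06 (limma adjusted p = 0.519 and 0.816). LGALS3BP, a secreted glycoprotein, was the closest to the threshold of the genes that missed it, with 0.93 to 1.18 in subfertile cows, 1.16 to 1.71 in fertile cows and a difference of -0.35 ± 0.12 (SE; limma adjusted p = 0.054); it was called lower with normexp, quantile normalization or median centring. EPSTI1 ran from 0.69 to 1.23 in subfertile cows and from 0.79 to 1.44 in fertile cows and differed by -0.05 ± 0.14 (SE; limma adjusted p = 0.839).

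XAF1, which binds the caspase inhibitor XIAP, had the largest difference upwards of the 31 genes. Its levels were 2.05, 2.28, 2.30, 2.45 and 2.23 in subfertile cows 1 to 5 and 0.83 to 2.17 with a median of 1.51 in fertile cows. Fertile cow 2, at 2.17, overlapped the subfertile values and the other fertile cows fell below them. The difference was 0.74 ± 0.20 (SE; 1.68-fold higher, limma adjusted p = 0.0202). A second XAF1 probe, 9255 bases upstream, differed by 0.54 ± 0.19 (SE; limma adjusted p = 0.0658) and followed the first (r = 0.91). With both probes averaged, XAF1 was still called.

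Tested probes of one gene could be compared in 20 pairs from 17 genes. Further probes of SAMD9, IRF1, STAT2, IFI6, MX1, DTX3L, IFIH1 and RSAD2 were well above background on at most 1 array. They were not tested and are in no pair, although another probe of the gene was detected. The probes of ISG15, of HERC6 and of IRF7 overlap, and those of IRF7 share 54 of 60 bases. The median r of deviations from the group means was 0.786, 17 of 20 pairs had r above 0, and 13 passed a permutation test adjusted over the 20 pairs. Their differences had the same sign in 16 pairs, and 6 pairs, of DDX58, HERC6, IFI35, IRF9, USP18 and XAF1, differed in whether they were called. Over all 51 tested probes 4 were called higher and 3 lower, beside 14.8% higher and 7.38% lower, or 22.2% in either direction, of all probes tested. The 3 pairs with r below 0 belong to IRF9, IFIH1 and PARP9. The brightest probe was the downstream one in 18 of 19 pairs with coordinates. Pairs at most 400 bases apart, a limit set after the values were seen, had r from 0.78 to 0.98 (6 pairs), and pairs farther apart had r from -0.49 to 0.91 (13 pairs); the points share the cows and the part of distance in this was not tested.

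**Figure D3:**
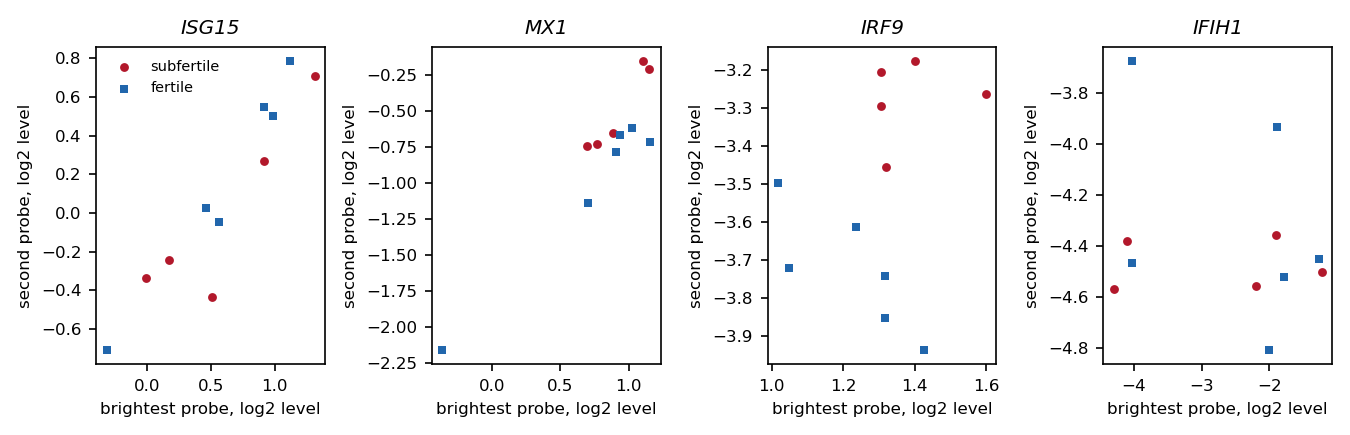
Level of a second probe against the brightest probe of the same gene in each of 11 cows, both as log2 processed signal minus the 75th percentile of the array; circles are subfertile and squares fertile cows. The probes of ISG15 and MX1 run together, with within-group r of 0.94 and 0.98, while those of IRF9 (r = -0.49) and IFIH1 (r = -0.28) do not, and IFIH1 shows 4 cows near -4 on its brightest probe.

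Variation among cows of a group was close to that of the array as a whole. The median within-group SD was 0.297 over the 31 genes and 0.268 over all named genes. USP18, the member at the median, had a larger SD than 56.3% of all named genes. After IFIH1 the widest were BST2 with an SD of 1.14, IFI44 with 0.80, HERC5 with 0.75 and IFIT2 with 0.72.

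Pairs of members varied together to a small degree. The median r over 465 pairs, taken on deviations from the group means over 11 cows, was 0.127, and 18.5% of pairs had r above 0.5 while 37.6% had r below 0. Over all pairs of 13109 named genes the median was 0.003, with 10.3% above 0.5 and 49.7% below 0. In the 6 fertile cows alone the medians were 0.106 for members and 0.002 for all named genes. Leaving out each cow in turn kept the members' median between 0.071 and 0.152. These are descriptions, since all pairs share the same 11 arrays.

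Set against ISG15, 23 of 30 members had r above 0, and 3 passed a two-sided permutation test within groups adjusted over the 30 correlations. The matching shares of all named genes against ISG15 are not given here, so these counts are not read as a trait of the list. Over all pairs of named genes, 49.7% had r below 0 and 10.3% had r above 0.5. SAMD9 followed ISG15 most closely, with r = 0.92 (permutation p = 0.0005, adjusted p = 0.015) and rho = 0.91 (permutation p = 0.00081, adjusted p = 0.0243), and r = 0.93 without subfertile cow 3 and fertile cow 6, the cows farthest from the ISG15 median. It missed the threshold without fertile cow 6 alone (r = 0.90, adjusted permutation p = 0.137) and passed under the other 17 alternatives. The other SAMD9 probes were not well above background on any array, so this correlation rests on the brightest probe alone. BST2 had r = 0.85 (permutation p = 0.00384, adjusted p = 0.0416), rho = 0.77 (permutation p = 0.0128, adjusted p = 0.111) and r = 0.76 without those 2 cows. IFI44 had r = 0.82 (permutation p = 0.00416, adjusted p = 0.0416), rho = 0.75 (permutation p = 0.0148, adjusted p = 0.111) and r = 0.73 without them. BST2 lost its call under 10 of 18 alternatives and IFI44 under 9, among them leaving out fertile cow 1, 3 or 6 or subfertile cow 1, 3 or 4 for both genes.

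IRF1, IFIT5 and IFIT3 came next with r of 0.78, 0.75 and 0.72, and PARP14 had r = -0.75. None of these passed, each at an adjusted permutation p of 0.052. Without subfertile cow 3 and fertile cow 6, r was 0.82, 0.71 and 0.70, and -0.49 for PARP14. The adjusted permutation p of rho was 0.111 to 0.115 for IRF1, IFIT5 and IFIT3. For PARP14, rho was -0.60 with an adjusted permutation p of 0.228. The genes called between groups did not follow ISG15 closely: r was 0.62 for USP18, 0.19 for RSAD2, 0.05 for IFI35, 0.03 for HERC6 and -0.04 for XAF1, with adjusted permutation p-values of 0.138 or more. In the 6 fertile cows alone SAMD9 had r = 0.97 (exact permutation p = 0.0028) and MX1 r = 0.89 (exact permutation p = 0.0458). Fertile cow 6 had the lowest fertile level of both MX1 and ISG15. Over 11 cows MX1 had r = 0.62 (adjusted permutation p = 0.155) and rho = 0.47 (adjusted permutation p = 0.296). In the fertile cows alone 4 members had an exact p under 0.05 and 0 passed after adjustment. Slides held at most 2 cows, too few for a correlation. Between the 2 cows of a slide SAMD9 differed in the same direction as ISG15 on 4 of 4 slides, IFI44 on 3 and BST2 on 2. On the slide of subfertile cows 2 and 4 the differences (cow 2 minus cow 4) were -0.74 for ISG15, -1.04 for SAMD9, -1.72 for BST2 and -0.60 for IFI44.

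**Figure D4:**
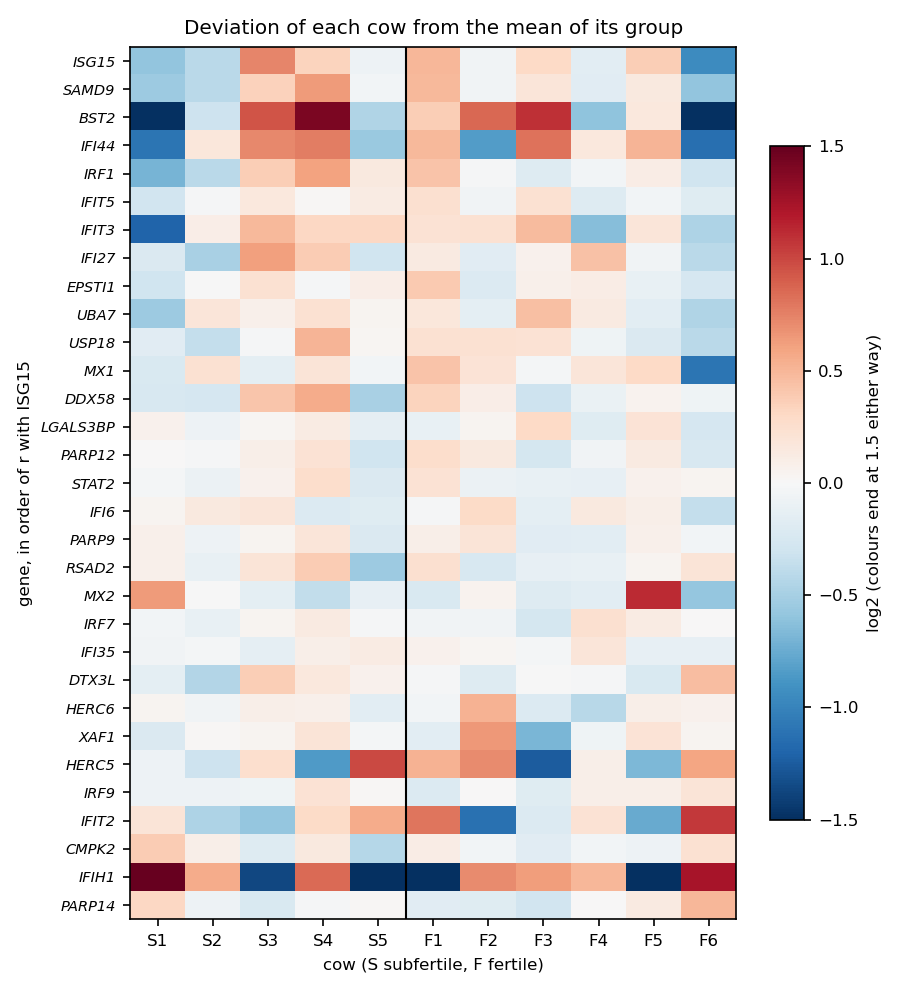
Deviation of each cow from the mean of its own group (log2, colour scale ending at 1.5 either way) for 31 interferon-stimulated genes, in order of their within-group r with ISG15; S1 to S5 are subfertile and F1 to F6 fertile cows. ISG15, SAMD9, BST2 and IFI44 at the top are low in S1 and F6 and high in S3 and S4, while IFIH1 and PARP14 at the bottom are high in S1 and F6.

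The cows differed in how many members they led. Subfertile cow 4 had the highest level of its group in 15 of 31 members, or 48.4%, against 15.1% of all named genes, and subfertile cow 3 in 8, or 25.8% against 18.5%. Subfertile cow 1 was lowest of its group in 11 members, or 35.5% against 22.7% of all named genes, and subfertile cow 5 in 9, or 29.0% against 16.8%. Among fertile cows, cow 1 was highest in 11 members, or 35.5% against 13.3% of all named genes, and cow 6 was lowest in 14, or 45.2% against 24.6%. Fertile cow 6 was also highest in 6 members, or 19.4% against 24.0% of all named genes. The median deviation of the 31 genes from the group mean was 0.21 in subfertile cow 4 and -0.08 in subfertile cow 1, and 0.21 in fertile cow 1 and -0.18 in fertile cow 6.

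Some cell type markers moved with these cows and others did not. The mean deviation of 11 macrophage markers was 0.67 in subfertile cow 4 and -0.37 in subfertile cow 1. It was -1.08 in fertile cow 6 and 0.17 in fertile cow 1, where it did not stand out from the 0.17 to 0.31 of fertile cows 2 to 5. Their mean level ran from -1.60 to -0.56 in subfertile cows and from -1.99 to -0.60 in fertile cows, and 10 of the 11 were above background on all arrays. The T and NK cell markers (12 tested) deviated by 0.38 in subfertile cow 4, -0.41 in subfertile cow 1 and -0.44 in fertile cow 6. They were at 0.24 in fertile cow 1, below the 0.43 of fertile cow 5. Pan-leukocyte markers deviated by 0.26 in subfertile cow 4, -0.54 in subfertile cow 1, 0.18 in fertile cow 1 and -0.28 in fertile cow 6. They were also at 0.23 in subfertile cow 5, where the members' median deviation was -0.04. Endothelial markers deviated by 0.45 in subfertile cow 4, -0.40 in subfertile cow 1, 0.23 in fertile cow 1 and -0.24 in fertile cow 6. B and plasma cell markers ran the other way in subfertile cow 4, at -0.57, and were at -0.42 in subfertile cow 1, 0.41 in fertile cow 1 and -0.53 in fertile cow 6. Smooth muscle markers stood 1.76 above the group mean in subfertile cow 1, and were at 1.22 in fertile cow 4 and -1.21 in fertile cow 2. The other lists follow in the order subfertile cow 4, subfertile cow 1, fertile cow 1, fertile cow 6. Epithelial markers were at 0.12, 0.14, -0.10 and 0.15. Stromal markers were at 0.03, -0.32, -0.01 and -0.11. Dendritic cell markers were at 0.20, -0.33, 0.09 and 0.07. Erythroid markers were at -0.86, -0.17, -0.20 and -0.11. The part of these cell types in the members' variation was not tested.

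Between groups, 1 of 11 macrophage markers was lower in subfertile cows (VSIG4, -1.0 ± 0.32 SE, limma adjusted p = 0.0461; CD14 was next at -0.57, adjusted p = 0.0742). Of 8 pan-leukocyte markers 1 was lower (PTPRC, -0.95 ± 0.21 SE, limma adjusted p = 0.00894; CD37 was next at 0.49, adjusted p = 0.0807), with mean levels of -1.15 to -0.34 in subfertile cows and -0.78 to -0.32 in fertile cows. Of 12 T and NK cell markers 2 were higher (CD4 at 1.45 and PRF1 at 0.94). The next by p pointed down (CD247 at -0.40 and CD3D at -0.42, limma adjusted p = 0.0733 and 0.0827). Of 4 B and plasma cell markers 1 was higher (CD79A at 1.43, with PAX5 next at 0.35). Of 3 dendritic cell markers 0 passed in limma, with 1 at an unadjusted p under 0.05 (BATF3 at 0.33, with IRF8 next at 0.17). Epithelial markers were higher in 6 of 11 (CLDN3 at 1.08 and ELF3 at 0.54 had the smallest p), with mean levels of 1.85 to 2.33 in subfertile cows and 1.13 to 1.84 in fertile cows. Stromal markers were lower in 2 of 11 (FBN1 at -0.98, FN1 at -0.80) and higher in 2 (COL3A1 and DCN, each at 0.53). Endothelial markers were higher in 2 of 9 (PLVAP at 0.79, TIE1 at 0.90). Smooth muscle markers were higher in 2 of 8 (SMTN at 0.89, LMOD1 at 0.73) and erythroid markers in 1 of 4 (SLC4A1 at 1.31, with HBA next at 0.65). Beside these counts and those of the pathway lists below, 14.7% of all named genes tested were higher and 7.65% lower. The part of tissue make-up in the 5 calls was not tested.

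The pathway around the members was taken from lists chosen with earlier results of these data known. Of 16 interferon ligands 7 had a probe and 2 were tested: IFNT3, named for an interferon tau, at -4.15 ± 0.18 in subfertile cows (SD, n = 5) and -4.98 ± 0.30 in fertile cows (SD, n = 6), with a difference of 0.83 ± 0.15 (SE, limma adjusted p = 0.00414), and IFNG with a difference of 0.02. Interferon genes are close copies of each other, so that the IFNT3 probe may read others. Of 9 receptor and signalling genes 1 was higher and 2 were lower. IFNGR1, a chain of the interferon gamma receptor, was higher by 0.50 ± 0.08 (SE; limma adjusted p = 0.00268). The kinases JAK2 and TYK2 were lower, by differences of -0.46 ± 0.11 and -0.33 ± 0.09 (SE; limma adjusted p = 0.0145 and 0.0197).

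Of 10 nucleic acid sensors and their relays 1 was higher. TMEM173, which encodes STING, the relay for cytosolic DNA, averaged 5.65 ± 0.03 in subfertile cows (SD, n = 5) and 4.44 ± 0.22 in fertile cows (SD, n = 6), a difference of 1.20 ± 0.12 (SE, limma adjusted p = 0.00015). MAVS, the relay for RNA sensors, had the next smallest p, with a difference of -0.24 ± 0.10 (SE; limma adjusted p = 0.103). Of 29 other interferon response genes 3 were higher and 4 lower. TRIM5, a capsid-binding restriction factor, was lower with a difference of -1.33 ± 0.17 (SE; limma adjusted p = 0.000874), and PNPT1, a mitochondrial RNA nuclease, was higher by 0.86 ± 0.14 (SE; limma adjusted p = 0.0026). Of 9 genes typical of the interferon gamma response 0 passed in limma, with 1 at an unadjusted p under 0.05. The smallest p-values there belonged to SOCS1, with a difference of 0.45 and an adjusted p of 0.125, and CXCL9, with 0.46 and an adjusted p of 0.168.

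The genes outside the list whose deviations were most like the mean deviation of the 31 members over 11 cows were FGF12 (r = 0.97), LOC510536, SRL, WBSCR17, LOC521764, RNF145, BACE2, RGS5, C22H3ORF63 and LOC785366 (r = 0.93), out of 13078 named genes compared. These are the 10 highest of many values over few cows, and 0 of the 10 belong to the interferon or cell type lists. That 0 depends on the cut at 10 genes. Below the cut, the stromal marker FBN1 had r = 0.91 and PSMB10, of the other interferon response genes, r = 0.89. Other listed genes ran against the members' mean, such as the erythroid marker AHSP at r = -0.78.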

How the data were processed

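Fluorescence intensity was extracted from 1-colour arrays, labelled with cyanine-3 per the labels' protocols, by the software named in the submitters' processing notes (Agilent Feature Extraction 10.5.1.1); the deposited files hold processed signal, mean signal, background and detection flags per spot. A second deposited table, of log2 values, was made by the authors; its values, set against the scanner files, are scaled to each array's 75th percentile and centred per probe over the 11 arrays (column medians -0.08 to 0.09; r of 0.996 to 0.998, but 0.958 for fertile cow 1); its direction is that of the signal. The file of fertile cow 6 has no header and rounded signals, and its gene names were taken by probe from the other files. Probe positions are on HGSC Btau 3.1, per the file headers and notes.

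Outlier-flagged spots (1 to 156 an array) and control spots were left out, the log2 processed signal was reduced by the array's 75th percentile, and spots of a probe were averaged. The 2 groups of cows were set against each other in limma (version 3.58.1, R 4.3.3; lmFit and eBayes with group as the only term), and p-values were adjusted by Benjamini-Hochberg over 31876 probes. Correlations were taken on deviations from group means, with 100000 resamples within groups, or exactly in 6 fertile cows. Named in full are ISG15, MX1, MX2, the OAS1 genes, IFIT1, RSAD2, IFI6 and members called or with probes that disagree in a call; other members were added after their values were seen. In each other list the 2 genes with the smallest p are named, and the 10 genes most like the members' mean. Further genes of these lists were added after their values were seen. Members and lists were chosen with earlier results of these data known. On simulated arrays of this comparison (31641 probes), 53% of 100 probes changed by 1 log2 unit and 92% of 100 changed by 2 were recovered, with 11 false among 156 calls. No other probes were changed there, and probes and arrays were simulated without correlation. These data differ in both respects, so the rates do not carry over to them. Alternatives covered background correction, scaling, filter, probe choice, slide, scan day, replicate number and leaving out each cow.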

Additional observations from a re-analysis of the deposited data

Results flagged for a closer look

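In 62 groups of values (31 genes in each group of cows) 5 held a cow far from the others of its group; chance flags about 1 in 20 such groups. Fertile cow 6 was lowest of its group for MX1, at -0.37 against 0.70 to 1.16 in the other fertile cows, and highest for DTX3L, at -4.63 against -5.33 to -5.10. Subfertile cow 1 was lowest of its group for IFIT3, at -5.48 against -4.18 to -3.79 in the other subfertile cows, and for UBA7, at -0.91 against -0.32 to -0.13. Fertile cow 5 was highest of its group for MX2, at -4.73 against -6.43 to -5.79 in the other fertile cows. The second MX1 probe was lowest in fertile cow 6 too, at -2.16 against -1.14 to -0.62 in the other fertile cows.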

How the results depend on the processing

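Of the 31 genes 3 were called higher and 2 lower in the main setting. The counts moved to 9 higher and 1 lower with normexp background correction, to 1 higher and 1 lower with the mean of a gene's tested probes, and to 0 higher and 0 lower with a random block for the slide or for the scan day. With a replicate block, in which fertile cow 6 has no partner of its number and adds nothing to the differences, they were 0 higher and 1 lower (RSAD2), against 4 higher and 3 lower without that cow and without the block. Leaving out 1 cow gave 2 to 4 higher and 1 to 3 lower; without subfertile cow 2, 1 gene was lower. Of all probes 7066 were called, against 17081 with normexp, 12175 with no filter on dim probes, 3670 with the slide and 975 with the scan day as a random block, and 4526 to 7297 leaving out 1 cow (4526 without subfertile cow 2). The members' median difference of -0.04 was 0.11 with normexp, where that of all probes was 0.33. Replicate numbers did not pair the cows: the correlations of deviations for numbers 1 to 5 were -0.21, 0.17, 0.22, -0.04 and -0.17, and the replicate block left 4761 probes called, against 7297 without fertile cow 6 and without the block. The 3 correlations with ISG15 became 5 with normexp, 1 with median centring and 7 with probes above background on all 11 arrays, and 0 to 4 leaving out 1 cow (0 without fertile cow 6; 1 without fertile cow 1 or subfertile cow 1, 3 or 4). No tested alternative reversed a difference or correlation that was called in the main setting. Genes not called there did change direction. With normexp, CMPK2, DTX3L, IFIT2 and IFIT3 were called higher, against main differences of -0.20, -0.0016, -0.03 and -0.17. The causes were not tested. Subfertile arrays were dimmer, so that members near background, such as MX2, are least certain.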
